A study of Homo sapiens with 4 samples.

Results

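Nuclear receptors are transcription factors, most of which are switched by a small lipid-soluble ligand, and 45 genes of the human superfamily were examined in HER2-positive breast cancer cells before and after the acquisition of lapatinib resistance. The members were chosen by name, from the steroid, retinoid, thyroid hormone and vitamin D receptors to the lipid sensors, the clock receptors and the orphan receptors, which have no settled ligand. Probes were assigned to them through the RefSeq accession that the array design gives, and 44 of the 45 genes had at least 1 probe, of 16422 genes with a named probe. No probe was matched to NR6A1. The 44 genes had 62 probes.

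Gene expression was measured on 4 one-colour microarrays, 1 per condition. SkBr3 and BT474 are breast cancer cell lines that carry extra copies of ERBB2, the gene of HER2. Parental SkBr3 and parental BT474 cells carry a vehicle label, and SkBr3/Lap and BT474/Lap are each 1 clone of the respective line, selected in rising concentrations, up to 1 μM, of lapatinib, which blocks the tyrosine kinases EGFR and HER2, and labelled as lapatinib-treated. Thus the effect of the drug in the medium and the effect of resistance cannot be told apart here, and neither can resistance and the choice of the clone. The sample labels number the SkBr3 clone 3 and the BT474 clone 6, whereas the study uses these numbers the other way around. The clones are therefore named here by their parental line. There were no replicate arrays, so a difference between 2 conditions has no replicate check. The SkBr3/Lap array lay on a slide of its own and the other 3 shared a slide, so that slide and clone cannot be told apart for SkBr3/Lap.

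In a cell, a ligand-bound receptor pairs with itself or with a retinoid X receptor, binds short DNA motifs near its target genes, and exchanges corepressors for coactivators. In breast epithelium, the estrogen receptor ESR1 is the best known member, and the progesterone receptor PGR is one of its classical targets. The glucocorticoid receptor NR3C1 mediates the response to cortisol, and the peroxisome proliferator-activated receptors (PPARs) control fatty acid oxidation and storage.

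Values are given as scaled signal, the processed signal of a probe in percent of the 75th percentile of its array, and differences as log2 ratios of scaled signals. Levels of different genes cannot be compared on this scale, since each probe has its own response. Probes were kept when their unscaled signal was at least 100 on at least 1 array, and the kept probe of highest mean signal stood for its gene. Where 1 of 2 arrays was not well above background, the fold is a lower limit, counted from the lowest signal well above background on that array or from the probe's own signal there, whichever was higher. The unscaled signal at the 75th percentile was 1115 to 2074, and 66.6% to 74.0% of the probes were well above background. The lowest scaled signal well above background was 1.44% on the SkBr3 array, 0.641% for SkBr3/Lap, 1.38% for BT474 and 0.871% for BT474/Lap, a lower floor in the clones than in their parents. The 4 HER2 amplicon genes examined were well above background on all arrays, and ERBB2 itself was 21396%, 5724%, 22129% and 14119% of the 75th percentile in SkBr3, SkBr3/Lap, BT474 and BT474/Lap. The luminal markers EPCAM, KRT8, KRT18 and KRT19 were well above background on all arrays, whereas CDH1 was not in SkBr3 and SkBr3/Lap. PTPRC, the defining marker of leukocytes, and COL1A2, LUM and DCN of fibroblasts were not well above background on any array. Of 5 fibroblast markers with a probe, COL3A1 and PDGFRB were well above background in SkBr3/Lap, and the summed scaled signal of this list was 20.8% there against 1.22% to 2.07% on the other arrays. The endothelial markers CDH5 and PECAM1 were 8.43-fold and at least 5.38-fold higher in SkBr3/Lap than in SkBr3. The summed endothelial list had 16.2% in SkBr3 against 67.3% in SkBr3/Lap, and 78.1% in BT474 against 39.1% in BT474/Lap. Most of the sum in the BT474 cells came from VWF, with 77.0% in BT474 and 35.3% in BT474/Lap. The summed leukocyte list ranged from 11.2% in BT474/Lap to 46.6% in SkBr3. Their part in the results below was not tested.

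Of the 45 receptor genes, 26 were well above background in SkBr3 and 30 in its clone, and 30 in BT474 and 34 in its clone. On all 4 arrays, 24 genes were. The share of all probes well above background was likewise higher in each clone. It was 66.6% in SkBr3 against 73.7% in SkBr3/Lap, and 68.3% in BT474 against 74.0% in BT474/Lap. A total of 9 receptor genes were well above background on no array. They were the estrogen receptor beta gene ESR2, the hepatocyte nuclear factors HNF4A and HNF4G, the bile acid receptor NR1H4, the xenobiotic receptor NR1I2, the neural receptor NR2E1, NR4A3, RORB and RXRG. Another 6 (ESRRB, NR1I3, NR2E3, NR5A1, NR5A2 and RARB) were well above background somewhere but stayed under a signal of 100 on every array. The other 29 genes, with 40 kept probes, entered the comparisons. Such a gene had to be bright in at least 1 condition, so counts over these 29 are not counts over the superfamily.

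Against its own parental cells, SkBr3/Lap had 5 receptor genes at least 2-fold higher (NR2F1, NR3C2, PPARA, NR3C1 and PPARD) and 4 at least 2-fold lower (THRA, RARG, PPARG and RARA), of 26 with a measurable fold. Over all genes, 13.9% were at least 2-fold higher and 13.4% lower in this comparison, so the receptors, at 19.2% and 15.4%, were near the background. BT474/Lap had 6 higher than BT474 (PPARG, PPARA, NR3C2, NR3C1, RXRA and RARG) and 2 lower (THRB and NR4A1) of 29, or 20.7% and 6.90%, where 8.84% and 5.29% of all genes were higher and lower. The median log2 difference of the receptors was -0.05 in SkBr3/Lap and 0.06 in BT474/Lap, against -0.05 and -0.08 for all genes. Of the 26 genes with a fold in both clones, 7 were above their parent in both, 8 below in both and 11 on opposite sides. At least 2-fold higher in both clones were 3 genes, the glucocorticoid receptor NR3C1, the mineralocorticoid receptor NR3C2 and PPARA (11.5%), where 2.61% of all genes were. No receptor gene was at least 2-fold lower in both, where 1.28% of all genes were. RARG and PPARG were at least 2-fold apart in opposite directions, as were 2.72% of all genes. Both directions in a clone rest on the same scaling, and with the array median in place of the 75th percentile the median of all genes moved to 0.11 in SkBr3/Lap and -0.29 in BT474/Lap. The split of receptors higher and lower then became 7 to 3 in SkBr3/Lap and 4 to 3 in BT474/Lap. For all genes, the share of higher genes among those changed at least 2-fold in SkBr3/Lap went from 50.9% to 60.4%, while in BT474/Lap it went from 62.6% to 45.8%.

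**Figure D1:**
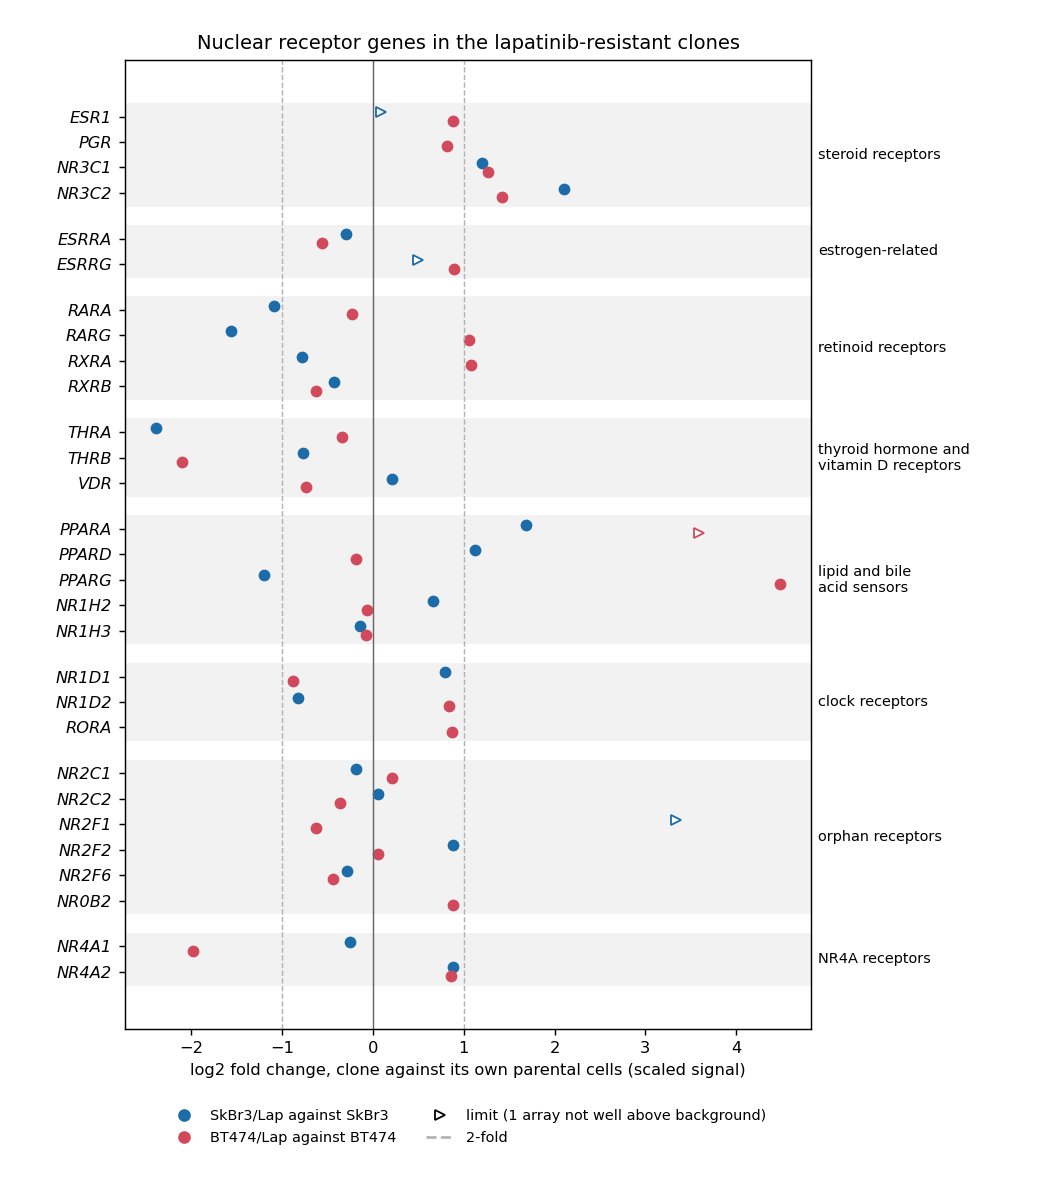
Log2 fold change of scaled signal for 29 nuclear receptor genes (rows, grouped by class) in SkBr3/Lap (blue) and BT474/Lap (red), each against its parental line, from 1 array each. Open triangles are lower limits where 1 array was not well above background, dashed lines mark 2-fold, and NR3C1, NR3C2 and PPARA lie beyond 2-fold in both clones while PPARG lies at -1.20 and 4.48.

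A test of resistance across both lines was possible only with the cell lines standing in for replicates. With cell line as a block, limma found 0 of 25927 kept probes past an adjusted p of 0.05, and 900 probes (3.47%) with an unadjusted p under 0.05. Of the 29 receptor genes, 3 (10.3%) were among the latter. By limma the unadjusted p was 0.0210 for PPARA, 0.0228 for NR3C2 and 0.0491 for NR3C1, and their adjusted p was 1.00. With 1 residual degree of freedom no difference described here is statistically supported, and the values below describe these 4 arrays.

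Among the steroid receptors, ESR1 and PGR separated the 2 lines, and NR3C1 and NR3C2 were at least 2-fold higher in each clone than in its parent. NR3C1 separated the lines as well, by 10.2-fold between the parents. The scaled signal of ESR1, measured by 10 spots on each array, was 0.993% in SkBr3, which was not well above background, and 1.52% in SkBr3/Lap, and 92.1% in BT474 against 170% in BT474/Lap. BT474 was thus at least 64.2-fold above SkBr3, and BT474/Lap was 1.84-fold above BT474. The SD of the 10 log2 spot values was 0.07 in BT474 and 0.06 in BT474/Lap, which is technical spread within an array. In SkBr3/Lap, ESR1 was barely above the lowest measurable signal of SkBr3, with a limit of 1.06-fold. Another ESR1 probe never reached a signal of 100 and had 3.76% in both BT474 and BT474/Lap.

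For PGR, the scaled signals were 0.372% in SkBr3 and 0.152% in SkBr3/Lap, neither well above background, and 514% in BT474 against 903% in BT474/Lap. PGR was measurable in the BT474 cells alone, at least 358-fold above SkBr3 in the parental cells and 1.76-fold higher in the clone than in its parent. ESR2, the other estrogen receptor, was not well above background on any array.

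NR3C1, the glucocorticoid receptor, had 176% in SkBr3 against 405% in SkBr3/Lap, and 17.2% in BT474 against 41.4% in BT474/Lap. SkBr3/Lap was 2.30-fold and BT474/Lap 2.40-fold above its parent, and 10.2-fold lower in BT474 than in SkBr3. The SD of its 10 log2 spot values was 0.05 to 0.08 on each array. The order of the 4 arrays was the same on the other NR3C1 probe (48.5%, 175%, 6.97% and 9.44%), but there the BT474 clone was 1.35-fold higher, under 2-fold. NR3C2, which binds aldosterone and also cortisol, had 7.63% in SkBr3 against 32.7% in SkBr3/Lap, and 4.96% in BT474 against 13.3% in BT474/Lap. Both clones lay above both parents for this gene, by 4.29-fold in SkBr3/Lap and 2.68-fold in BT474/Lap. The parents differed 1.54-fold. Under normexp background correction with quantile normalization, NR3C1 and NR3C2 in BT474/Lap fell below 2-fold, to log2 differences of 0.95 and 0.80, and with its probes averaged NR3C1 had 0.85 there.

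Of the estrogen-related receptors, which bind DNA without a steroid and drive genes of mitochondrial metabolism, ESRRA was bright everywhere, with 1737% in SkBr3 against 1413% in SkBr3/Lap, and 1668% in BT474 against 1129% in BT474/Lap. Its differences were below 2-fold in each comparison. ESRRG had 0.372% in SkBr3, not well above background, and 2.02% in SkBr3/Lap, and 13.2% in BT474 against 24.5% in BT474/Lap. On this probe BT474 was at least 9.22-fold above SkBr3. The other ESRRG probe, under a signal of 100 on all arrays, gave a log2 difference of 0.71 between the parents, so the 2 probes differed in the size of this difference.

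Of the retinoid receptors with a fold, RARG and RXRA lay on opposite sides of their parents in the 2 clones, and RARA and RXRB were lower in both. RARG, a retinoic acid receptor prominent in epithelia, had 158% in SkBr3 against 53.5% in SkBr3/Lap, and 51.6% in BT474 against 107% in BT474/Lap. It was 2.95-fold lower in SkBr3/Lap, 2.08-fold higher in BT474/Lap and 3.06-fold lower in BT474 than in SkBr3. The parental line with the higher value was therefore the one whose clone was lower, and the parental arrays are shared by these comparisons. A second RARG probe gave log2 differences of -1.33 and 0.76 in the clones, the same directions with the BT474 value below 2-fold.

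RXRA, the common partner of retinoid, thyroid, vitamin D and lipid-sensing receptors, had 804% in SkBr3 against 468% in SkBr3/Lap, and 816% in BT474 against 1725% in BT474/Lap. The parents were alike within 1.02-fold, SkBr3/Lap was 1.72-fold lower and BT474/Lap 2.11-fold higher. Again the other probe agreed in direction and was smaller, with log2 differences of -0.52 and 0.36. Scaled to the array median, the BT474/Lap differences of RARG and RXRA were 0.85 and 0.87 on the log2 scale, below 2-fold. RARA, the retinoic acid receptor alpha gene, had 28.4% in SkBr3 against 13.3% in SkBr3/Lap, and 19.1% in BT474 against 16.3% in BT474/Lap, and was 2.13-fold lower in SkBr3/Lap. RXRB had 85.2% in SkBr3 against 63.2% in SkBr3/Lap, and 171% in BT474 against 111% in BT474/Lap, a 2.01-fold difference between the parents and less than 2-fold in either clone. For RARB, the third retinoic acid receptor, only BT474 was well above background, at 4.43%, against 0.421% in BT474/Lap, a difference of at least 5.09-fold. Its signal was under 100, so RARB is not in the counts.

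The thyroid hormone receptors were lower in both clones, each of them by at least 2-fold in a different one. THRA had 501% in SkBr3 against 95.6% in SkBr3/Lap, and 772% in BT474 against 611% in BT474/Lap, and was 5.24-fold lower in SkBr3/Lap but 1.26-fold lower in BT474/Lap. A second THRA probe, designed to another transcript, gave 3.18-fold and 1.52-fold. THRB had 12.5% in SkBr3 against 7.35% in SkBr3/Lap, and 14.3% in BT474 against 3.33% in BT474/Lap, and its clones were lower by 1.71-fold and 4.28-fold. THRA and the clock receptor gene NR1D1 overlap by 1075 bases on opposite strands of chromosome 17 in the RefSeq annotation. They differed in direction in SkBr3/Lap, where the NR1D1 log2 difference was 0.79. In BT474/Lap both were lower, with log2 differences of -0.34 for THRA and -0.88 for NR1D1. The vitamin D receptor VDR, with 10 spots, had 714% in SkBr3 against 824% in SkBr3/Lap, and 713% in BT474 against 428% in BT474/Lap. The parents did not differ for VDR beyond its spot SD of 0.05 to 0.08, and both clones stayed within 2-fold.

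The 3 PPAR genes each had a different pattern. PPARA, the receptor that turns on fatty acid oxidation, had 23.1% in SkBr3 against 74.0% in SkBr3/Lap, and 1.83% in BT474, not well above background, against 22.0% in BT474/Lap. It was 3.21-fold higher in SkBr3/Lap, at least 12.0-fold higher in BT474/Lap and at least 12.6-fold lower in BT474 than in SkBr3. With the 3 probes averaged, the log2 difference in BT474/Lap was 1.26 in place of 3.59. On another PPARA probe the 2 clones were higher by 3.58-fold and at least 4.86-fold. The remaining PPARA probe was well above background in SkBr3/Lap alone, at 5.79%, and gave no value in BT474/Lap.

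PPARG, the regulator of fat cell differentiation and lipid storage, had 55.5% in SkBr3 against 24.1% in SkBr3/Lap, and 4.65% in BT474 against 104% in BT474/Lap. SkBr3/Lap was 2.30-fold below its parent and BT474/Lap 22.3-fold above, and the parents differed 11.9-fold with SkBr3 above BT474. The BT474/Lap log2 difference of 4.48 was the largest of any receptor gene measured on both arrays in a clone. The SD of the 10 log2 spot values of PPARG was 0.06 in SkBr3 and 0.08 in its clone, but 0.24 in BT474 and 0.40 in its clone, whereas the median SD of probes spotted 10 times was 0.07 to 0.08 on each array. The spots of PPARG thus scattered more than usual in both BT474 samples, though by far less than the difference between them. PPARD, expressed in most tissues, had 265% in SkBr3 against 576% in SkBr3/Lap, and 189% in BT474 against 165% in BT474/Lap. It was 2.17-fold higher in SkBr3/Lap, and its other probe 1.33-fold, under 2-fold.

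PPARA and PPARG are shown with the 250 bases before their most upstream RefSeq start, since these sister genes had different patterns in the clones, to look for AGGTCA, the motif that PPARs and many other nuclear receptors recognise. The windows are on the plus strand of GRCh38.p14, at chr22:46150276-46150525 for PPARA and chr3:12287118-12287367 for PPARG, and capitals mark AGGTCA or its reverse complement TGACCT.
PPARA: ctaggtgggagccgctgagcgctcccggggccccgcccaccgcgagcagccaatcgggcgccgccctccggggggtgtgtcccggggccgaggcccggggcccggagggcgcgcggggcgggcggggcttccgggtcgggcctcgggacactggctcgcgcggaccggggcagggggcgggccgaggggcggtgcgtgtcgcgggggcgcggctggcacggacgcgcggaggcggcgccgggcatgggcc
PPARG: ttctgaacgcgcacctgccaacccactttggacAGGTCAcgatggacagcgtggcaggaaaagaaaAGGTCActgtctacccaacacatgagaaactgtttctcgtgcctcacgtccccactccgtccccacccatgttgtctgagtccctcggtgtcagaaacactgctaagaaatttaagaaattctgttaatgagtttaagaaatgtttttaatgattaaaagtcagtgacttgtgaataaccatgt
The PPARG window held 2 copies, beginning 217 and 184 bases before the start, and the PPARA window none. At least 2 copies occurred in 0.996% of 27305 genes with such a window and at least 1 in 12.2%. Among the receptor genes, 6 of 40 with a window (15%) held the motif, namely NR1H3, NR1H4, NR5A2, PPARG, RARA and RXRG, a share near that of all genes. Receptor genes on the chromosome of HNF4G were left out of these 40, whereas the count of all genes kept that chromosome. RefSeq lists 6 starts for PPARG in this table and 2 for PPARA, and which start these cells used was not measured.

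**Figure D2:**
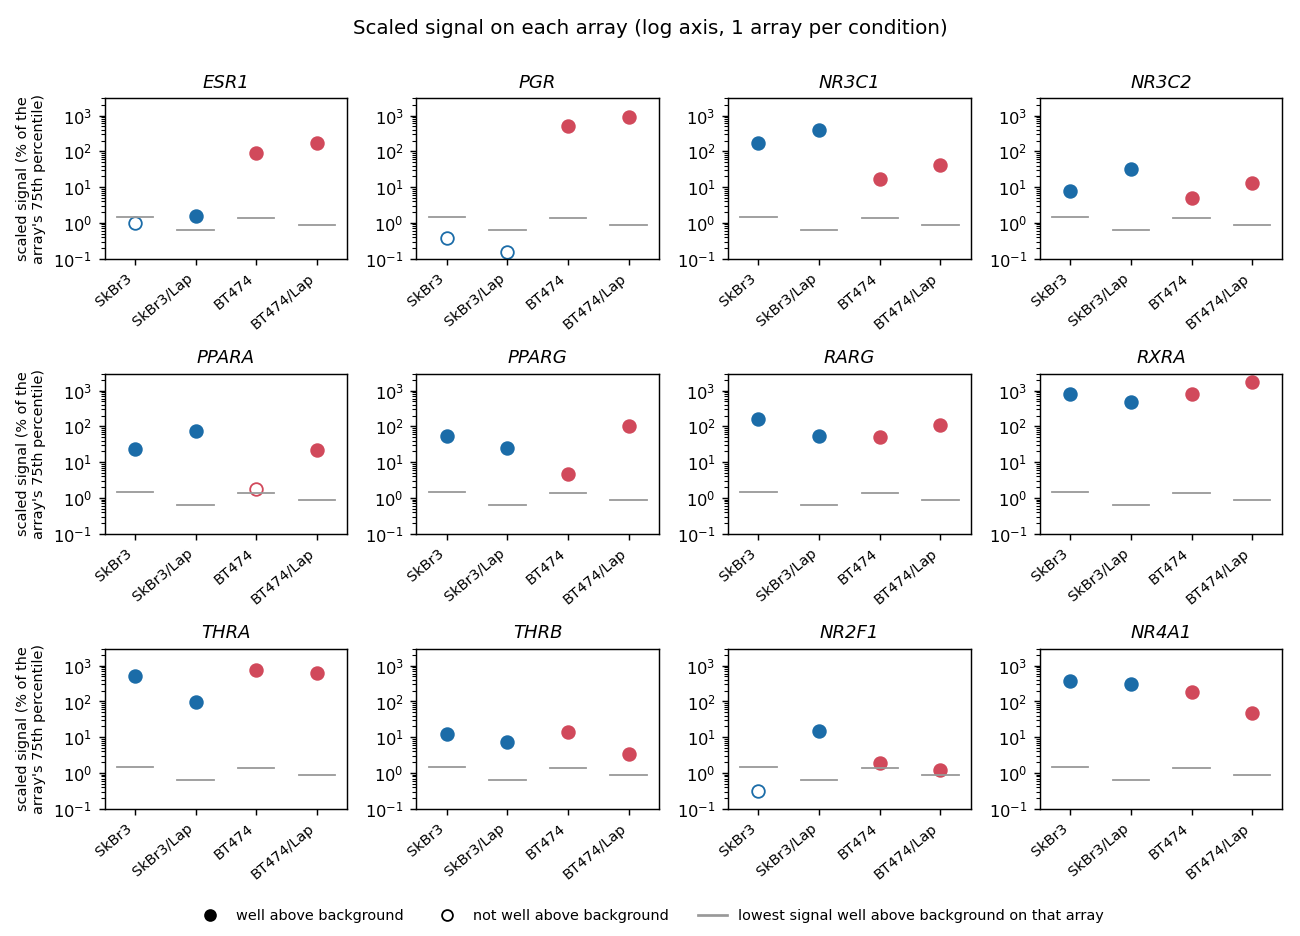
Scaled signal (log axis, percent of the 75th percentile of the array) of 12 receptor genes on the 4 arrays, 1 point per array, blue for SkBr3 and red for BT474 cells. Open points were not well above background, grey bars mark the lowest signal well above background, and the SkBr3 points of ESR1 and PGR lie under that bar while NR3C1 and NR3C2 are higher in each clone than in its parent.

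The liver X receptors, oxysterol sensors that control cholesterol efflux, varied little. NR1H3 had 315% in SkBr3 against 285% in SkBr3/Lap, and 347% in BT474 against 328% in BT474/Lap. NR1H2 had 117%, 186%, 170% and 163% in the same order. NR1H2 was 1.59-fold higher in SkBr3/Lap on this probe and 1.78-fold on its other one, and no difference of either gene reached 2-fold.

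The clock receptors, which repress or activate the core clock gene BMAL1, showed a crossed pattern below 2-fold. The REV-ERB gene NR1D1 had 116% in SkBr3 against 200% in SkBr3/Lap, and 29.9% in BT474 against 16.2% in BT474/Lap, so that it was 3.86-fold lower in BT474 than in SkBr3. Its log2 differences in SkBr3/Lap and BT474/Lap were 0.79 and -0.88, and its other probe gave 0.73 and -0.64. NR1D2, the other REV-ERB gene, had log2 differences of -0.82 and 0.84, opposite to NR1D1 in each clone. RORA, an activator at the same DNA element, was not well above background in SkBr3 (0.685%) or SkBr3/Lap (0.755%) and had 6.58% in BT474 and 12.0% in BT474/Lap. BT474 was at least 4.58-fold above SkBr3 for RORA.

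Among the orphan receptors, 3 genes had a difference of at least 2-fold, NR0B2 and the COUP transcription factor genes NR2F1 and NR2F2. NR2F1 had 0.305% in SkBr3, not well above background, and 14.5% in SkBr3/Lap, and 1.88% in BT474 against 1.21% in BT474/Lap. It was higher in SkBr3/Lap than in SkBr3 by at least 3.34 on the log2 scale and was near the lowest measurable signal in both BT474 samples. COUP factors are known from mesenchymal and endothelial as well as epithelial cells. The fibroblast and endothelial marker sums given above were higher in SkBr3/Lap than in SkBr3. The endothelial sum was highest in BT474 (78.1%), where NR2F1 had 1.88%. VWF alone made up 77.0% there, and CDH5 and PECAM1 were not well above background in BT474. A link between NR2F1 and these markers was not tested. NR2F2 had 113% in SkBr3 against 209% in SkBr3/Lap, and 571% in BT474 against 594% in BT474/Lap. The parents differed 5.03-fold, more than either clone from its parent (1.84-fold and 1.04-fold). A second NR2F2 probe gave 3.84-fold between the parents. NR0B2, a receptor without a DNA-binding domain that represses other receptors, was not well above background in the SkBr3 cells (0.597% and 0.425%) and had 6.05% in BT474 and 11.1% in BT474/Lap. The limit between the parents was 4.22-fold.

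The NR4A genes are immediate early genes, switched on within minutes by growth factors and stress. NR4A1 had 372% in SkBr3 against 314% in SkBr3/Lap, and 184% in BT474 against 46.8% in BT474/Lap. It was 3.94-fold lower in BT474/Lap, 1.19-fold lower in SkBr3/Lap and 2.02-fold lower in BT474 than in SkBr3. NR4A2 had 6.69% in SkBr3 against 12.3% in SkBr3/Lap, and 5.53% in BT474 against 9.99% in BT474/Lap, which is 1.84-fold and 1.81-fold higher in the clones. The 2 NR4A genes therefore lay on opposite sides of their parents in both clones.

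Between the parental lines, 7 receptor genes were at least 2-fold higher in BT474 (PGR, ESR1, ESRRG, NR2F2, RORA, NR0B2 and RXRB) and 6 lower (PPARA, PPARG, NR3C1, NR1D1, RARG and NR4A1) of 29, or 24.1% and 20.7%, where 19.4% and 19% of all genes were. The receptors as a set were near the background here. Of these 13 differences, 6 are limits, because the gene was not well above background in 1 line. These limits shrank under normexp correction with an offset of 50, which compresses low signals. On the log2 scale PGR went from 8.48 to 6.64, ESR1 from 6.00 to 4.12 and ESRRG from 3.20 to 1.79. PPARA went from -3.66 to -2.15, RORA from 2.20 to 1.11 and NR0B2 from 2.08 to 1.20. In the clones, the limit of NR2F1 in SkBr3/Lap went from 3.34 to 2.25 and that of PPARA in BT474/Lap from 3.59 to 1.88. In all 3 comparisons, 9 genes stayed under 2-fold (ESRRA, VDR, NR1H2, NR1H3, NR1D2, NR2C1, NR2C2, NR2F6 and NR4A2), with log2 differences from -0.82 to 0.88. The testicular receptors NR2C1 and NR2C2 and the COUP relative NR2F6 were among these.

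**Figure D3:**
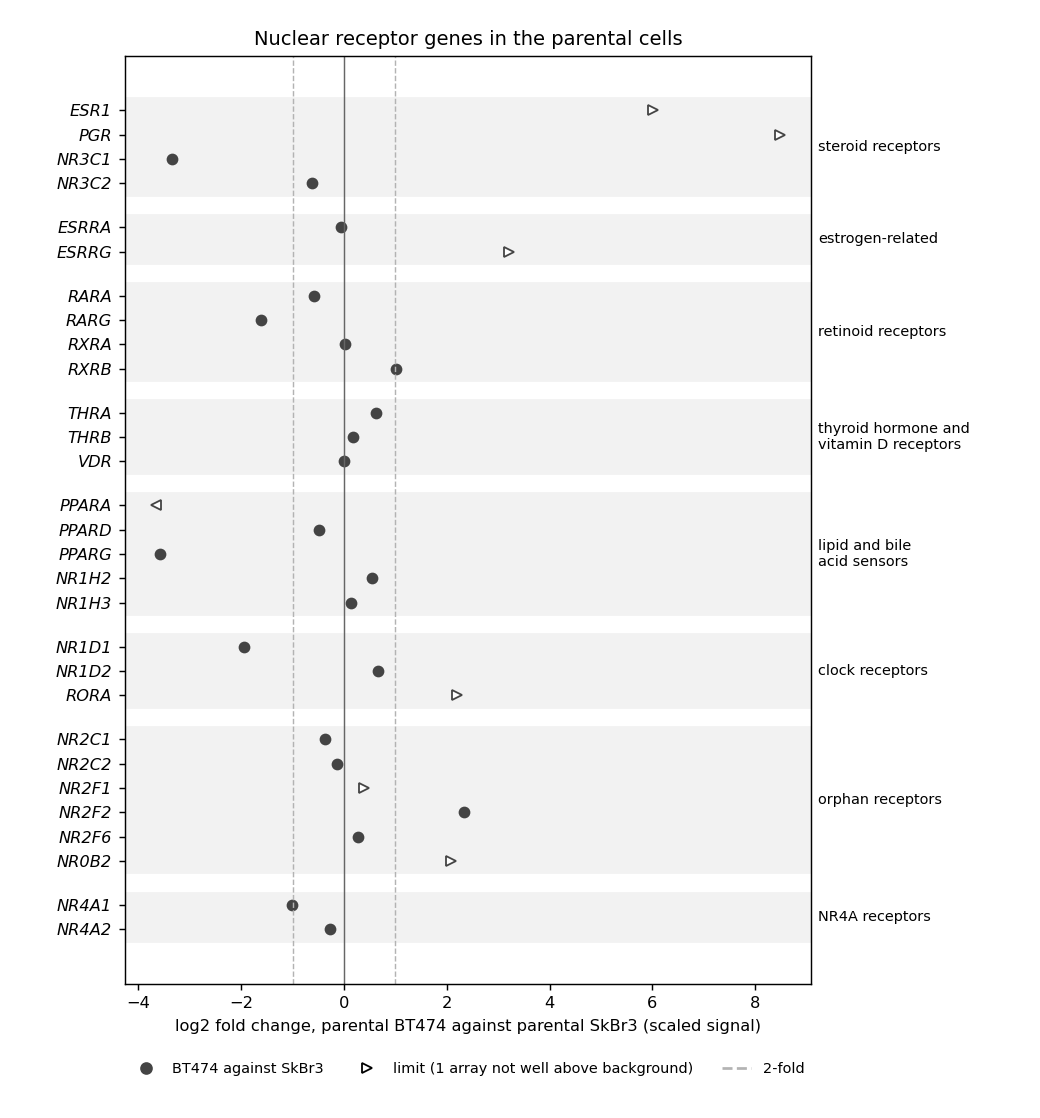
Log2 fold change of scaled signal in parental BT474 against parental SkBr3 for the 29 receptor genes (rows, grouped by class), with 1 array per line. Open triangles are limits, dashed lines mark 2-fold, and PGR and ESR1 lie farthest to the right while PPARA, PPARG and NR3C1 lie farthest to the left.

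The coactivators and corepressors, through which the receptors act on chromatin, were counted in the same way. For these and the target lists below, the shares of all genes higher and lower serve as background. They were 19.4% and 19% between the parents, 13.9% and 13.4% in SkBr3/Lap, and 8.84% and 5.29% in BT474/Lap. Between the parents, 3 coactivators were higher in BT474 and 2 lower of 10, and 3 corepressors were higher of 8. PPARGC1A, a coactivator of mitochondrial genes, was at least 13.9-fold higher in BT474, TBL1X, a subunit of corepressor complexes, 13.6-fold, and the coactivator NCOA6 3.07-fold. None of the coactivators with a fold was at least 2-fold changed in a clone (0 of 9 for SkBr3/Lap, 0 of 10 for BT474/Lap), and the largest log2 difference was 0.76, for PPARGC1A in BT474/Lap. The corepressor list changed by 1 gene in each clone, which was HR in both. HR, which encodes the hairless corepressor of the thyroid hormone and vitamin D receptors, had 68.3% in SkBr3 against 2.08% in SkBr3/Lap, and 37.1% in BT474 against 122% in BT474/Lap, and its log2 differences in the clones were -5.04 and 1.71.

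Most estrogen receptor targets were higher in BT474 than in SkBr3, as was ESR1. Of 10 genes, 7 were at least 2-fold higher in BT474 than in SkBr3 and 0 lower, with a median log2 difference of 2.97 against -0.02 for all genes. In SkBr3/Lap, 4 of 8 were lower and 1 higher than in SkBr3 (median -1.46), and ESR1 was not well above background in the parental cells. That median was -0.63 over probes well above background on all 4 arrays and -0.69 with the probes of each gene averaged. CA12, a carbonic anhydrase, had the largest difference, from 1639% in SkBr3 to 2.34% in SkBr3/Lap (log2 -9.45), and was 3.10-fold higher in BT474/Lap. Its log2 difference was thus of opposite sign in the 2 clones. In BT474/Lap, 2 of 10 were higher and 1 lower (median 0.01), with the largest difference in PDZK1, a scaffold protein, from 18.7% in BT474 to 208% in BT474/Lap.

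The glucocorticoid receptor targets were the list with the most genes higher in BT474/Lap. There 6 of 9 were at least 2-fold higher and 0 lower (median log2 difference 1.23), and in SkBr3/Lap 3 of 10 were higher and 2 lower (median -0.04). SGK1, a kinase that controls ion channels, had 8.59% in SkBr3 against 207% in SkBr3/Lap, and 21.9% in BT474 against 175% in BT474/Lap. CEBPD, a transcription factor of the acute phase response, had 466%, 2885%, 52.0% and 119% in the same order. Both were at least 2-fold higher in each clone, as was NR3C1, with log2 differences of 4.59 and 3.00 for SGK1 and 2.63 and 1.20 for CEBPD. The other targets were at least 2-fold higher in a single clone or in neither. TSC22D3, which encodes the glucocorticoid-induced leucine zipper, was at least 136-fold lower in SkBr3/Lap and 1.67-fold lower in BT474/Lap, and FKBP5, a chaperone of the receptor, was 1.03-fold higher in SkBr3/Lap and not well above background in the BT474 cells.

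The retinoic acid receptor targets differed most in SkBr3/Lap, where 5 of 8 were at least 2-fold higher and 2 lower (median log2 difference 1.90, with limits counted at their value). The retinoic acid-degrading enzyme CYP26B1 had the largest difference, from 1.28% in SkBr3, not well above background, to 85.6% in SkBr3/Lap, at least 59.6-fold. The related CYP26A1 was at least 32.9-fold higher. In the opposite direction CRABP2, a carrier of retinoic acid, was 29.3-fold lower. In BT474/Lap, 1 of 6 was higher and 1 lower (median 0.67), with the largest difference in DHRS3, a retinal reductase, 3.32-fold higher there and 2.63-fold lower in SkBr3/Lap. The median in SkBr3/Lap rests on genes that were dim in the parent, for it was -1.39 over the probes well above background on all 4 arrays, and normexp correction lowered it to 1.12 and that of BT474/Lap to 0.44.

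Of the vitamin D receptor targets, the calcium channel gene TRPV6 and the antimicrobial peptide gene CAMP were lower in both clones. TRPV6 had 151% in SkBr3 against 49.0% in SkBr3/Lap, and 38.4% in BT474 against 14.8% in BT474/Lap, and CAMP had 22.5%, 8.62%, 12.6% and 1.18%. They were the 2 genes of 4 with a fold that were at least 2-fold lower in each clone, and none was higher. Of the PPAR targets, 1 of 6 was higher and 1 lower in SkBr3/Lap, the lipid droplet gene PLIN2, 6.13-fold higher, and ANGPTL4, an inhibitor of lipoprotein lipase, 2.04-fold lower. In BT474/Lap, 1 of 6 was higher and 1 lower, and PLIN2 was 1.47-fold lower, under 2-fold. PPARA was at least 2-fold higher in each clone. Of the listed PPAR targets 0 were, where 2.61% of all genes were. A list this short cannot show whether PPARA acted on its targets.

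The liver X receptor targets had 3 of 5 lower and 0 higher in SkBr3/Lap (median -1.04), the largest in LPCAT3, a phospholipid-remodelling enzyme, 2.48-fold lower. In BT474/Lap 1 of 5 was lower (median -0.64, or -0.35 without the filter on dim probes), the lipoprotein gene APOE, from 362% in BT474 to 8.03% in BT474/Lap. Of 7 clock genes under REV-ERB and ROR, 2 were higher and 1 lower in each clone. NPAS2, a partner of BMAL1, was higher in both, by 2.45-fold in SkBr3/Lap and 2.80-fold in BT474/Lap. BMAL1 itself was 2.55-fold below the parent in SkBr3/Lap and 1.52-fold above it in BT474/Lap. In each clone BMAL1 was on the opposite side to NR1D1 but on the same side as NR1D2.

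**Figure D4:**
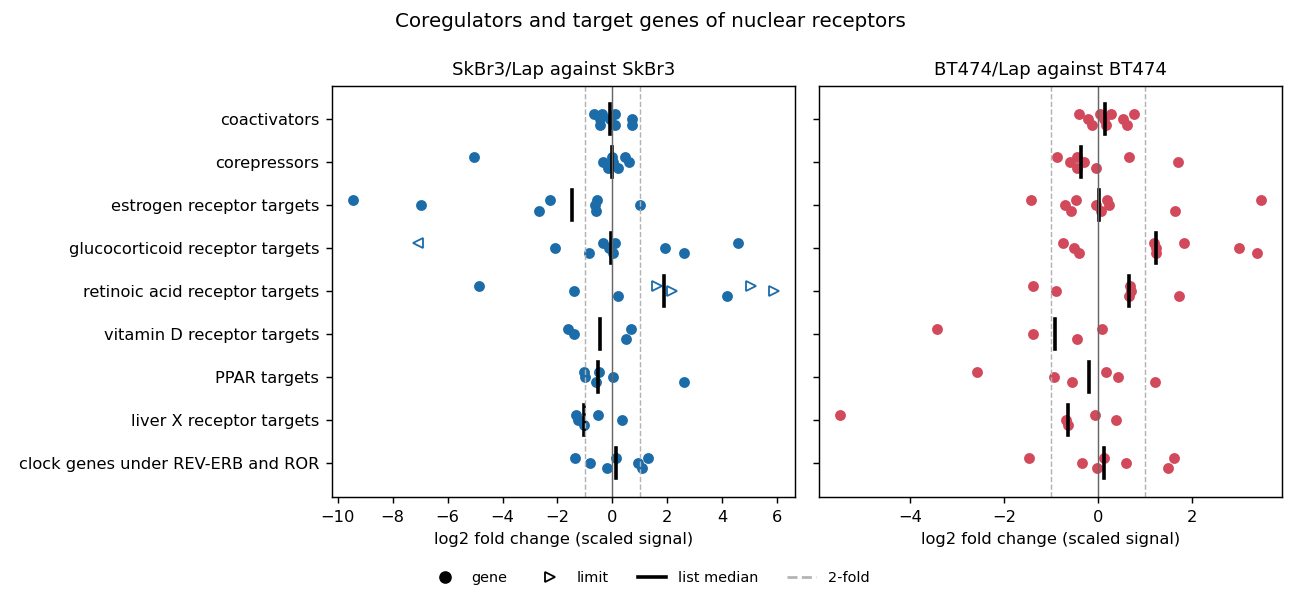
Log2 fold change of scaled signal in SkBr3/Lap (left) and BT474/Lap (right) against their parental cells for genes of 9 coregulator and target lists, 1 point per gene, with black bars at list medians and open triangles at limits. The horizontal axes differ between the panels; the glucocorticoid receptor targets have the highest median in BT474/Lap (1.23) and the retinoic acid receptor targets in SkBr3/Lap (1.90).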

How the data were processed

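Total RNA of 4 samples was labelled with Cy3 and hybridised to Agilent 44K arrays. Per the file headers, the authors deposited for each spot a processed signal intensity, background-subtracted and detrended by Feature Extraction 10.1.1.1. The methods of the study name another software version, a choice of Cy3 or Cy5, and LOWESS. The authors also deposited a table of log2 values, whose column medians were 0.13, -0.20, 0.11 and -0.05. From the values it is on a log2 scale and centred per probe, and its column differences deviated from those of the scanner signals by a median of at most 0.0014.

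Here the log2 processed signals of all spots of a probe were averaged and the 75th percentile of the array over 41000 probes was subtracted, with Python 3.11.15. A probe was well above background when at least 50% of its spots carried that flag of the scanner software. No spot was saturated (0 of 43376 on each array). Genes were named through RefSeq accessions, and promoter windows came from RefSeq (GRCh38.p14). Percentages of genes changed are over all genes with a fold. Differences of at least 2-fold were counted, and limma 3.58.1 (R 4.3.3) was fitted to 25927 kept probes with Benjamini-Hochberg adjustment. The fit was tested on simulated data. The number of arrays limits the precision, and flags and spot SDs cover technical error only.

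The members, gene lists and comparisons were chosen with earlier results of these data known. Values are given for every receptor at least 2-fold changed in a comparison, and for genes of a list changed in the same direction in both clones, else its largest change. One PPAR target is not reported here. A few other list genes (PPARGC1A, TBL1X, NCOA3, NCOA6, ANGPTL4, FKBP5, TSC22D3, CYP26A1, CRABP2 and BMAL1) were chosen after their values were seen. CARM1, ABCG1 and COL1A1 had no named probe. A planned description of the DNA-binding domains was not made. Alternatives were another scaling, background correction, filter, probe rule and fold, and the deposited log2 table.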

Additional observations from a re-analysis of the deposited data

Results flagged for a closer look

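For 5 receptor genes the 2 clones lay on opposite sides of their parents, with at least 1 of them 2-fold or more away. The log2 differences in SkBr3/Lap and BT474/Lap were -1.56 and 1.05 for RARG, -0.78 and 1.08 for RXRA, 1.12 and -0.19 for PPARD and -1.20 and 4.48 for PPARG. For NR2F1 they were 3.34, which is a lower limit, and -0.63. With 1 array per condition, the difference between the clones was not tested for any of them.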

How the results depend on the processing

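The 30 reported receptor differences of at least 2-fold kept their sign in all 232 values under other settings, and 20 of them stayed at least 2-fold in every setting that gave a value. These differences were picked by their size on the same arrays, so the kept signs are no support for them. The 10 that fell below 2-fold in at least 1 setting were RARA, PPARD and PPARG in SkBr3/Lap, NR3C1, NR3C2, RARG and RXRA in BT474/Lap, and ESRRG, RXRB and NR4A1 between the parents. Of 216 list medians under other settings, 24 moved. Counts depended on the setting more than signs did. With normexp correction and quantile normalization, 2 receptor genes were lower in SkBr3/Lap, 3 were higher in BT474/Lap and 1 was higher in both clones. With a threshold of 3-fold, 3 were higher and 1 lower in SkBr3/Lap, 2 higher in BT474/Lap and 1 higher in both. With all kept probes of a gene averaged, 3 were higher in BT474/Lap. Over probes well above background on all 4 arrays, which leaves fewer genes, 3 were higher in SkBr3/Lap and 2 in BT474 against SkBr3, the median in BT474/Lap was -0.14, and the median of the retinoic acid receptor targets in SkBr3/Lap was -1.39. With the array median as the scale, the receptor median in BT474/Lap was -0.15. Apart from the lost dim genes, the cause was not tested. By limma, 0 receptor genes were past the threshold in all 4 other fits. No array could be left out, since each condition was 1 array. For the same reason, the only paired test possible was the limma fit, which had cell line as a block. Signal over background limits ESR1, PGR, ESRRG, RORA, NR2F1, NR0B2 and PPARA, for which 1 or both arrays of a pair were not well above background.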
